A study of Gallus gallus with 16 samples.

Results

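Genes of the LIM homeodomain family were followed through 2 days of chick embryo development with and without nicotine. They were taken by symbol, as every gene named ISL1, ISL2, LMX1A, LMX1B or LHX with a number. This gave 8 of the 21357 identifiers in the authors' deposited tables, of which 9225 carry a symbol. The 8 genes are ISL1 (ENSGALG00000014884), LHX1 (ENSGALG00000005409), LHX2 (ENSGALG00000001124), LHX3 (ENSGALG00000003928), LHX4 (ENSGALG00000036587), LHX6 (ENSGALG00000001347), LHX8 (ENSGALG00000011369) and LMX1A (ENSGALG00000003424). RefSeq lists 12 such genes for the chicken assembly GRCg7b, and ISL2, LHX5, LHX9 and LMX1B were not analysed here.

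LIM homeodomain proteins are transcription factors that join a DNA-binding homeodomain to a pair of LIM domains, which bind partner proteins. The adaptor LDB links them into larger complexes, and LMO proteins, which have LIM domains but no homeodomain, compete for that adaptor. In the developing spinal cord, combinations of these factors mark and specify classes of motor neurons and interneurons, and some members also act in sensory ganglia, forebrain, limb, heart and facial mesenchyme.

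RNA was sequenced from 16 wild-type domestic chicken embryos from specific pathogen-free eggs, 1 library per embryo, in 4 groups of 4. Nicotine embryos came from eggs injected before incubation with nicotine hydrogen bitartrate at 30 ng/ml, scaled to egg weight, and were taken at day 5 or day 7. Vehicle embryos came from eggs injected in the same way with sodium bitartrate and were taken at day 5 or day 7. Each library came from a dissected block holding the spinal cord, cut from the region that runs from the middle of the neck to the hind edge of the forelimb. The block is bulk tissue, so fewer cells of a type and less RNA per cell cannot be told apart in any value below.

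Total counts ran from 21801247 to 29002315 per library. In each group 1 library, 4 in all, was under 0.05 CPM (counts scaled by library total) at each of 57 loci that reached 0.5 CPM in the other 12. Of 14 spinal cord markers, 6 were listed in the authors' deposited tables, and PAX6, NKX6-1, ELAVL4, NEFM and NEFL had adjusted p-values there in every comparison. Markers of other tissues were listed there too. They were 4 of 5 for cartilage, 4 of 4 for leukocytes, 3 of 6 for epidermis and 2 of 5 for skeletal muscle. In that order 4, 3, 2 and 2 of them had an adjusted p at day 5, which was given only to loci with enough counts. The block thus held RNA of tissues other than spinal cord.

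Only LHX2 was analysed library by library. For the other 7 members the values are the authors' deposited comparisons, which give a log2 fold change, a p-value and, for loci with enough counts, an adjusted p-value, under 0.05 of which a gene is called here. The standard error (SE) and 95% interval given with each log2 fold change were worked back from it and its two-sided p-value. The tables attach adjusted p-values at day 5 only to loci with a mean normalised count of at least 133 over the 16 libraries, and in the comparison of the nicotine effect between days at least 92.7. By that rule, which was worked out after the data were seen, ISL1, LHX1 and LHX6 had mean counts above 133. LHX3, LHX4 and LMX1A lay between 92.7 and 133, and LHX8 lay between 2.65 and 92.7. LHX2 measured 68.2. These are counts per gene and not per length, so they show how much evidence stands behind each gene and do not rank the genes.

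Most calls among the members were for age, as they were over all loci. At day 7 against day 5 in nicotine embryos, 2 of 8 members rose and 1 fell in the authors' deposited table, where 31.1% of loci were called, 15.9% as higher and 15.3% as lower. In vehicle embryos over the same interval, 4 of 8 members rose and 0 fell in the authors' deposited table, where 36.8% of loci were called, 18.1% as higher. Between nicotine and vehicle embryos at day 5, 1 of the 3 members with an adjusted p rose in the authors' deposited table, where 2.72% of loci were called, 0.761% as higher. At day 7, 0 of 8 members were called for nicotine in the authors' deposited table, where 0.395% of loci were called. Among 6 members tested for the difference in nicotine effect between ages, 0 were called in the authors' deposited table, against 2.25% of loci. For nicotine at day 5, nicotine at day 7 and their difference, the authors' deposited tables gave 2, 2 and 3 of the 8 members an unadjusted p under 0.05, against 14.6%, 5.35% and 14% of the 21275 loci with a p under 1.

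Medians of the 8 members are set beside those of the loci with an adjusted p in the same deposited table. For day 7 against day 5 the median log2 fold change of the members was 0.66 in nicotine embryos, against 0.01. In vehicle embryos it was 1.13, against 0.04. For nicotine against vehicle it was 0.25 at day 5, against -0.01, and -0.34 at day 7, against 0.01. At day 5 only 11826 loci, and 3 of the 8 members, had an adjusted p. The day 5 medians thus compare unlike sets, since low-count loci count only among the members. A few members set each member median, and the plot of all 8 genes in 4 comparisons shows how wide their intervals were.

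**Figure D1:**
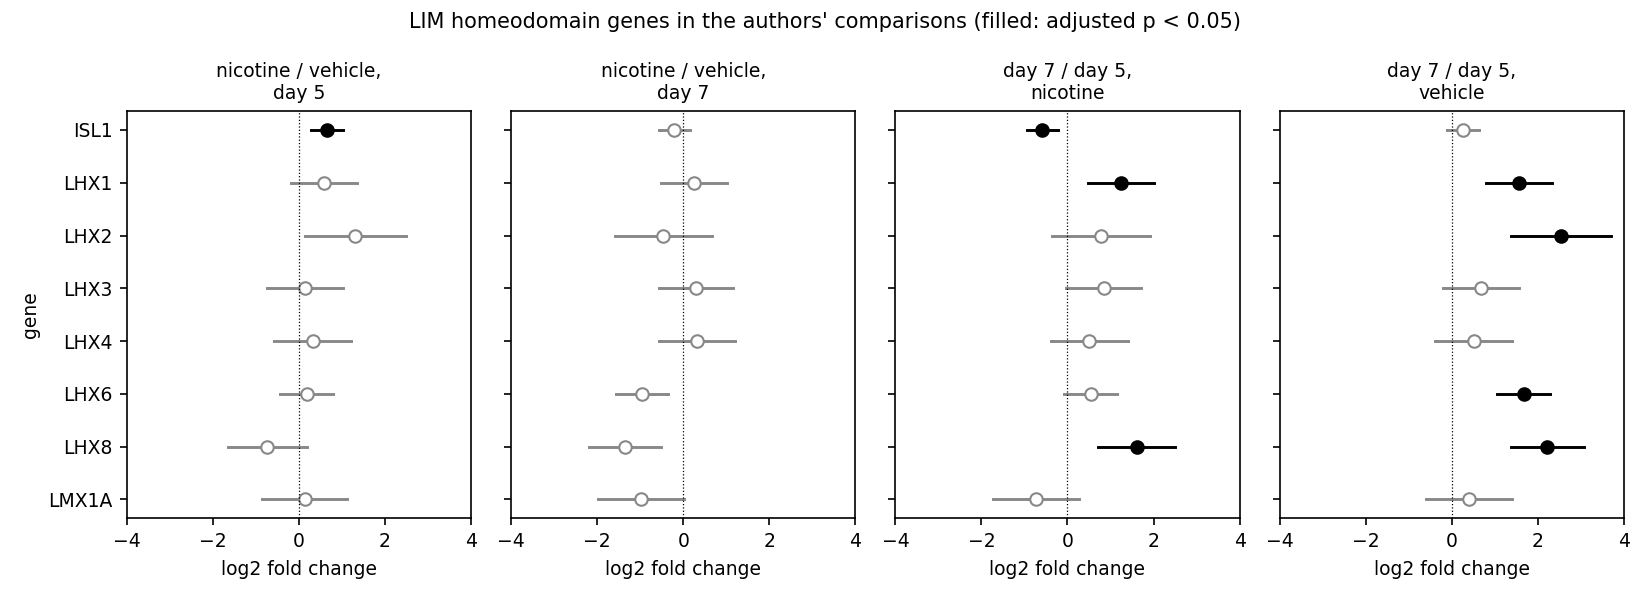
Log2 fold change (x axis) of each LIM homeodomain gene (y axis) in the authors' deposited tables, in 4 panels for nicotine against vehicle at day 5 and at day 7, and for day 7 against day 5 in nicotine and in vehicle embryos. Points are log2 fold changes, bars are 95% intervals worked back from the p-values, and filled points have an adjusted p under 0.05: ISL1 is the filled point at day 5 (0.65), and 4 genes are filled to the right of 0 in the vehicle age panel.

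ISL1 is the member called for nicotine. It is expressed by motor neurons as they leave the cell cycle, is needed for their formation, and is also found in sensory and sympathetic neurons, in a dorsal interneuron class and in heart progenitors. ISL1 was higher in nicotine than in vehicle embryos at day 5, with a log2 fold change of 0.65 (SE 0.19, 95% interval 0.28 to 1.01, 1.57-fold, adjusted p = 0.0338) in the authors' deposited table. At day 7 the log2 fold change of ISL1 for nicotine against vehicle was -0.21 (SE 0.19, 95% interval -0.57 to 0.16, adjusted p = 1.00) in the authors' deposited table. The difference between the ages, -0.85 (95% interval -1.37 to -0.34, p = 0.00122), had an adjusted p of 0.0522 in the authors' deposited table, above the 0.05 threshold. With Benjamini-Hochberg adjustment over every p-value of the authors' deposited table, the day 5 value of ISL1 had an adjusted p of 0.0436. In fits to the counts, edgeR called 0 of 18394 loci for nicotine at day 5 and DESeq2 called 264. ISL1 was not read in those fits, so its call rests on the deposited table alone.

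The point estimate of the age change of ISL1 differed in sign between the treatments. In nicotine embryos ISL1 fell by 0.59 on the log2 scale from day 5 to day 7 (95% interval -0.95 to -0.22, adjusted p = 0.00774) in the authors' deposited table. In vehicle embryos it had a log2 fold change of 0.27 for day 7 against day 5 (95% interval -0.10 to 0.63, adjusted p = 0.279) in the authors' deposited table. ISL1 was the member that fell with age in nicotine embryos. The comparison of these age changes is the same quantity as the difference in nicotine effect between ages given above, and it did not pass the threshold.

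LHX3 and LHX4 act with ISL1 in motor neurons of the medial column, and without it in a ventral interneuron class. LHX3 had a log2 fold change for nicotine against vehicle of 0.14 at day 5 (SE 0.45) and 0.30 at day 7 (SE 0.44) in the authors' deposited tables. LHX4 had 0.32 at day 5 (SE 0.46) and 0.32 at day 7 (SE 0.45) in the authors' deposited tables. These 4 values were smaller than their standard errors. The 95% interval of LHX3 at day 5, -0.73 to 1.02 in the authors' deposited table, holds the value measured for ISL1, so the data do not show that ISL1 and LHX3 responded differently.

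For day 7 against day 5, LHX3 had log2 fold changes of 0.84 in nicotine embryos (adjusted p = 0.147) and 0.68 in vehicle embryos (adjusted p = 0.240) in the authors' deposited tables. LHX4 had 0.51 in nicotine embryos (adjusted p = 0.439) and 0.51 in vehicle embryos (adjusted p = 0.423) in the authors' deposited tables. LHX3 and LHX4 thus had positive values in all 4 comparisons, and 0 of the 6 values with an adjusted p were called. The nicotine effect differed between days by 0.16 for LHX3 and 0.00 for LHX4 on the log2 scale in the authors' deposited table, with 95% intervals of -1.08 to 1.39 and -1.26 to 1.26.

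Of 18 motor neuron genes, LHX3 and LHX4 included, 9 were listed. For nicotine against vehicle, 0 of the 6 with an adjusted p at day 5 and 0 of 9 at day 7 were called in the authors' deposited tables, with median log2 fold changes of -0.00 and 0.24. The shares over all loci were 2.72% at day 5 and 0.395% at day 7. The choline transporter gene SLC5A7 had log2 fold changes of -0.51 at day 5 (adjusted p = 0.385) and 0.24 at day 7 in the authors' deposited tables. For day 7 against day 5, 2 of 9 rose in nicotine embryos, and 3 rose and 1 fell in vehicle embryos, in the authors' deposited tables. SLC5A7 was among the 2, with 1.00 (adjusted p = 0.0193), and CHAT was the 1 that fell, with -0.81 (adjusted p = 0.0354). Over all loci, 31.1% were called with age in nicotine embryos and 36.8% in vehicle embryos. The nuclear receptor gene ESRRG rose in both, by 0.56 in nicotine embryos (adjusted p = 3.85e-05) and 0.38 in vehicle embryos (adjusted p = 0.00609) on the log2 scale in the authors' deposited tables.

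CHAT, the acetylcholine-synthesising enzyme of motor neurons, was read per library because it was the motor neuron gene with counts, a choice made after its values were seen. At day 5 it had 1.64, 2.01, 0.757 and 1.31 CPM in the 4 nicotine embryos, against 2.51, 2.46, 3.30 and 2.84 CPM in the 4 vehicle embryos. All nicotine embryos lay below all vehicle embryos at that age. Its log2 fold change was -0.95 (SE 0.33), which did not pass in edgeR's quasi-likelihood test (adjusted p = 0.259). In the authors' deposited table it was -0.97 (p = 0.00292), with no adjusted p. At day 7 CHAT averaged 2.06 ± 0.570 CPM in nicotine embryos and 1.62 ± 0.602 CPM in vehicle embryos (SD, n = 4 each). The point estimates of CHAT and ISL1 at day 5 lay on opposite sides of 0.

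Other tissues that use ISL1 were set beside it. Of 20 genes of sensory and sympathetic ganglia, 12 were listed, and 0 of the 5 with an adjusted p were called at day 5 in the authors' deposited table (median log2 fold change 0.34). Of 13 genes of the second heart field and heart, 9 were listed, and 0 of 5 were called at day 5 in the authors' deposited table (median 0.24). The cardiac factor NKX2-5 ran from 7 to 120 counts per library in nicotine embryos at day 5 and from 0 to 96 counts in vehicle embryos, so its ranges overlapped. NKX6-1, a factor of ventral progenitors and motor neurons, rose at day 5 by 0.51 (adjusted p = 0.0348) in the authors' deposited table. It was the 1 call among 5 spinal cord markers with an adjusted p, where 2.72% of loci were called. The 6 listed spinal cord markers had a median of 0.51 at day 5, from -0.30 to 0.59, in the authors' deposited table. CSF1R, a macrophage receptor, fell by 0.46 (adjusted p = 0.00694), 1 of 3 leukocyte markers, in the authors' deposited table. The part of these tissues in the ISL1 value was not tested.

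**Figure D2:**
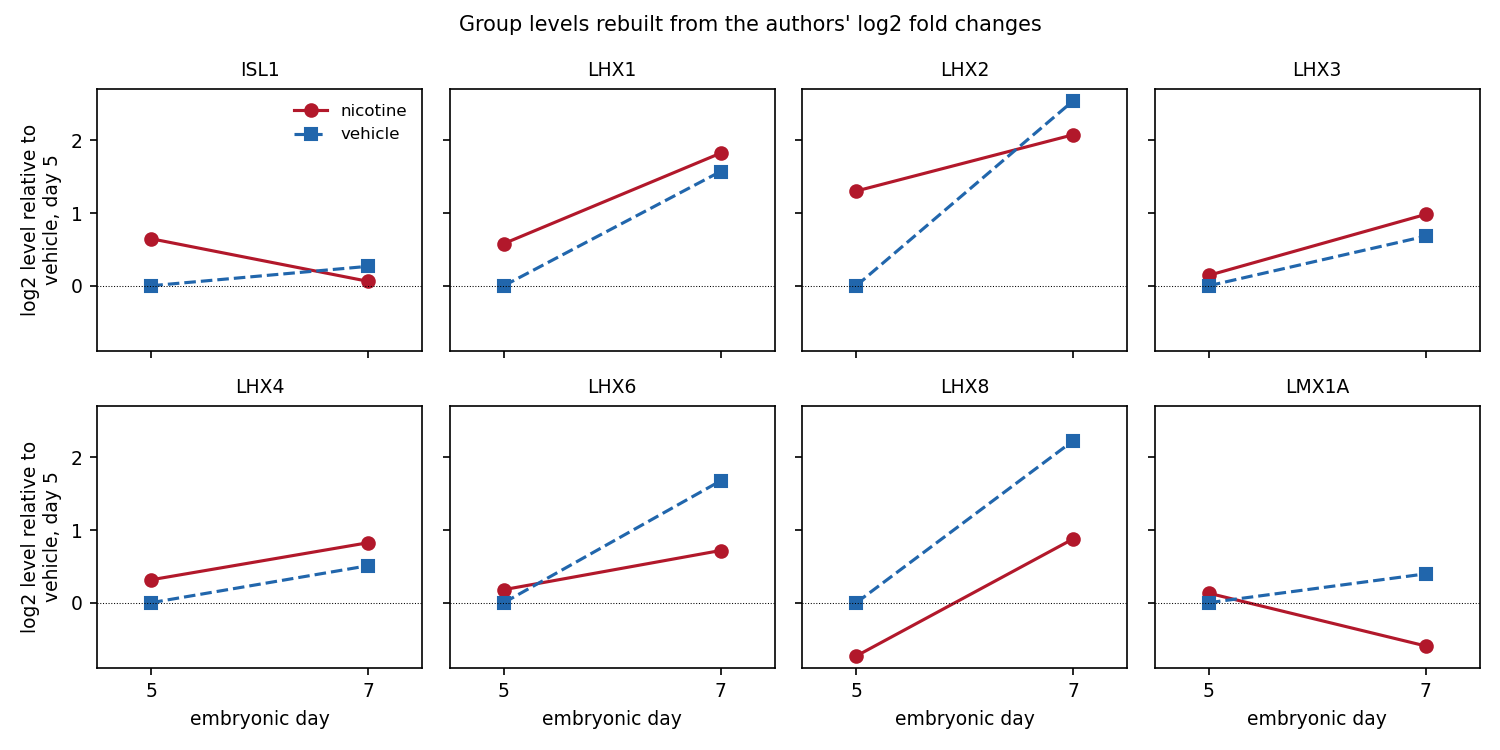
Level of each LIM homeodomain gene in the 4 groups (y axis, log2 relative to vehicle embryos at day 5) against embryonic day (x axis), rebuilt by adding log2 fold changes of the authors' deposited tables, with nicotine as circles and vehicle as squares. No error is drawn: ISL1 stands at 0.65 in nicotine embryos at day 5 and at 0.06 at day 7, LHX1 lies higher at day 7 than at day 5 in both treatments, and LHX6 and LHX8 lie lower in nicotine than in vehicle embryos at day 7.

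LHX1 and LHX2 mark interneurons of the spinal cord. LHX1 is found in several dorsal and ventral inhibitory classes and in motor neurons that send axons to the dorsal limb, and LHX2 in the most dorsal commissural class, the relay of body position sense. LHX1 rose with age in nicotine and in vehicle embryos, and LHX2 rose in vehicle embryos.

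LHX1 rose by 1.24 on the log2 scale in nicotine embryos from day 5 to day 7 (SE 0.39, 95% interval 0.48 to 2.01, 2.37-fold, adjusted p = 0.00662) in the authors' deposited table. In vehicle embryos LHX1 rose by 1.57 (SE 0.39, 95% interval 0.81 to 2.34, 2.97-fold, adjusted p = 0.000318) in the authors' deposited table. The rise was called in both treatments and differed between them by less than its standard error, with a difference of -0.33 (SE 0.55, 95% interval -1.41 to 0.75) in the authors' deposited table. For nicotine against vehicle, LHX1 had log2 fold changes of 0.58 at day 5 (95% interval -0.19 to 1.35, adjusted p = 0.369) and 0.25 at day 7 (95% interval -0.51 to 1.01) in the authors' deposited tables. Neither was called.

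LHX2 counts were low, and the libraries of nicotine embryos at day 5 varied most relative to their mean. At that age LHX2 had 3.16, 1.41, 0.237 and 3.75 CPM in the 4 nicotine embryos (77, 40, 5 and 86 counts), against 0.762, 0.940, 0.413 and 1.14 CPM in the 4 vehicle embryos (17, 26, 9 and 28 counts). In 3 of 4 nicotine embryos the level lay above all vehicle embryos, and in the fourth it lay below all of them, so the groups overlapped. The exact 95% binomial interval of the lowest nicotine library was 0.0768 to 0.552 CPM, and that of the next lowest was 1.01 to 1.92 CPM, so these libraries differed by more than counting error. Such intervals cover counting error only.

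At day 7 LHX2 had 2.26, 3.34, 4.04 and 3.73 CPM in the 4 nicotine embryos (62, 92, 89 and 88 counts), against 6.94, 6.51, 1.85 and 3.76 CPM in the 4 vehicle embryos (173, 175, 55 and 90 counts). Vehicle embryos held both the highest levels and the lowest, and the nicotine embryos lay within their range. Over the groups LHX2 averaged 2.14 ± 1.61 CPM in nicotine embryos and 0.813 ± 0.308 CPM in vehicle embryos at day 5, and 3.34 ± 0.776 CPM in nicotine embryos and 4.76 ± 2.40 CPM in vehicle embryos at day 7 (SD, n = 4 each). The order of the means, from low to high, was vehicle day 5, nicotine day 5, nicotine day 7 and vehicle day 7. No neighbours in that order passed the threshold over all loci by edgeR's quasi-likelihood test (adjusted p = 0.315, 0.453 and 1). Before adjustment, the p between the day 5 groups was 0.0382 by the same test.

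**Figure D3:**
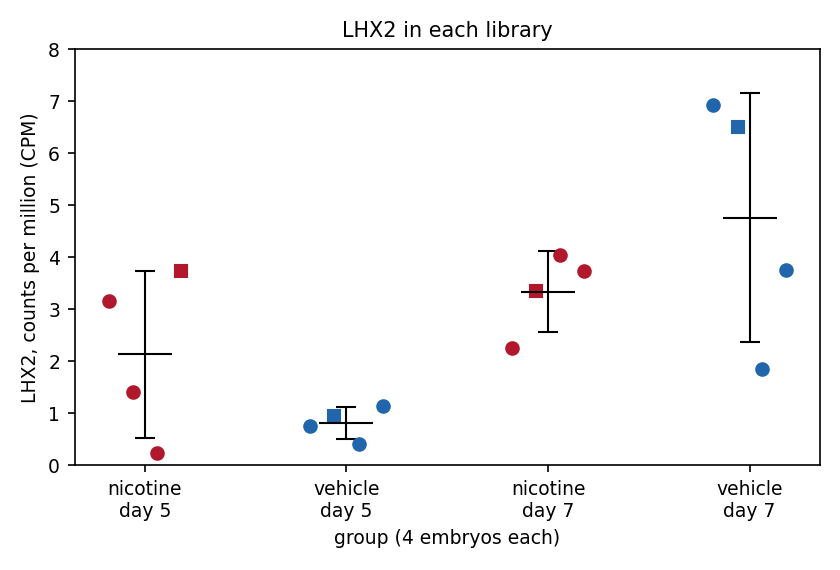
LHX2 level in CPM (y axis) in each of the 16 libraries, by group (x axis), with the mean and SD of the 4 embryos as a cross and bar and with squares for the 4 libraries that lacked 57 loci. Nicotine embryos at day 5 spread from 0.237 to 3.75 CPM, whereas vehicle embryos at day 5 stay between 0.413 and 1.14 CPM.

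The call for LHX2 was its rise with age in vehicle embryos. Day 7 against day 5 gave a log2 fold change of 0.64 in nicotine embryos (SE 0.58, 95% interval -0.60 to 1.88, adjusted p = 0.453 by edgeR's quasi-likelihood test), where edgeR called 29.6% of loci. In vehicle embryos it gave 2.54 (SE 0.62, 95% interval 1.22 to 3.86, 5.80-fold, adjusted p = 0.00484 by edgeR), where edgeR called 37.2% of loci, 17.6% as higher. All 4 vehicle embryos at day 7 lay above all 4 at day 5. Without the lowest nicotine library at day 5, the value in nicotine embryos was 0.29 (adjusted p = 0.691 by edgeR).

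Nicotine against vehicle at day 5 gave 1.38 for LHX2 (SE 0.61, 95% interval 0.09 to 2.68, adjusted p = 0.315 by edgeR). Without the lowest nicotine library the value was 1.73 (SE 0.46) and the adjusted p 0.428 by edgeR. At day 7 it was -0.51 (SE 0.57, 95% interval -1.73 to 0.71, adjusted p = 1 by edgeR). The nicotine effect on LHX2 differed between days by -1.89 (SE 0.83, 95% interval -3.68 to -0.11, adjusted p = 0.347 by edgeR). The sign of the LHX2 value thus differed between the ages without passing the test. In each of these 3 comparisons edgeR called 0 of 18394 loci, with 2747, 858 and 2521 loci at an unadjusted p under 0.05, and DESeq2 called 264, 31 and 242 loci.

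Of 26 spinal interneuron transcription factors, LHX1 included, 14 were listed. In the authors' deposited table for day 7 against day 5, 3 rose and 1 fell in nicotine embryos (median log2 fold change 0.43). In vehicle embryos 8 rose and 1 fell (median 1.17). Over all loci, 15.9% were called as higher with age in nicotine embryos and 18.1% in vehicle embryos. POU4F1, a factor of sensory and dorsal interneurons, rose by 2.10 in nicotine embryos (adjusted p = 1.79e-07) and 1.89 in vehicle embryos (adjusted p = 1.88e-06) in the authors' deposited tables. DRGX, which marks dorsal pain-related neurons, rose by 1.58 in nicotine embryos (adjusted p = 7.22e-09) and 1.36 in vehicle embryos (adjusted p = 5.49e-07) in the authors' deposited tables. DBX2, a progenitor factor, fell by 0.87 in nicotine embryos (adjusted p = 0.00155) in the authors' deposited table. LHX1 thus rose in both treatments as did POU4F1 and DRGX. For nicotine against vehicle, 0 of 6 were called at day 5 (median 0.45) and 0 of 14 at day 7 (median 0.12) in the authors' deposited tables. The shares over all loci were 2.72% at day 5 and 0.395% at day 7.

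LMX1A is a factor of the roof plate, the dorsal midline that releases signals to the dorsal spinal cord. It was called in none of the 4 comparisons that gave it an adjusted p. LMX1A had a log2 fold change for nicotine against vehicle of 0.13 at day 5 (SE 0.51) and -0.99 at day 7 (SE 0.51, 95% interval -1.99 to 0.01, p = 0.0518, adjusted p = 0.941) in the authors' deposited tables. For day 7 against day 5 it had -0.73 in nicotine embryos (adjusted p = 0.305) and 0.40 in vehicle embryos (adjusted p = 0.600) in the authors' deposited tables. Its interval for the difference in nicotine effect between ages, -2.53 to 0.29, was the widest of the family after that of LHX2 in the authors' deposited table, and the estimate was -1.12 (adjusted p = 0.370).

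LHX6 and LHX8 are known from the mouse as factors of the ventral forebrain, where LHX6 acts in cortical interneurons and LHX8 in cholinergic neurons. Both also act in the mesenchyme of the jaw, palate and teeth. LHX8 rose with age in nicotine and vehicle embryos and LHX6 in vehicle embryos, and both had lower point estimates in nicotine than in vehicle embryos at day 7.

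LHX6 had a log2 fold change of 0.54 for day 7 against day 5 in nicotine embryos (SE 0.31, 95% interval -0.07 to 1.15, adjusted p = 0.193) in the authors' deposited table. In vehicle embryos LHX6 rose by 1.68 (SE 0.31, 95% interval 1.06 to 2.29, 3.20-fold, adjusted p = 8.96e-07) in the authors' deposited table. The age change passed the test in vehicle embryos and not in nicotine embryos, and the difference between them, -1.14 (SE 0.44, p = 0.0101), had an adjusted p of 0.140 in the authors' deposited table. At day 7 LHX6 had a log2 fold change of -0.96 for nicotine against vehicle (SE 0.31, 95% interval -1.57 to -0.35, p = 0.00198, adjusted p = 0.262), and at day 5 of 0.18 (95% interval -0.44 to 0.80, adjusted p = 0.760), in the authors' deposited tables. The day 7 interval lay below 0, yet the value did not pass over all loci.

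LHX8 rose in both treatments. Day 7 against day 5 gave 1.61 in nicotine embryos (SE 0.46, 3.05-fold, adjusted p = 0.00236) and 2.23 in vehicle embryos (SE 0.44, 4.68-fold, adjusted p = 3.14e-06) in the authors' deposited tables. For nicotine against vehicle LHX8 had a log2 fold change of -1.35 at day 7 (SE 0.43, 95% interval -2.18 to -0.52, p = 0.00149, adjusted p = 0.216) in the authors' deposited table. At day 5 it was -0.73 (SE 0.46, 95% interval -1.64 to 0.18, p = 0.115, with no adjusted p) in the authors' deposited table. LHX8 was the member with negative point estimates for nicotine at both ages. Its difference in nicotine effect between ages was -0.62 (95% interval -1.85 to 0.62) in the authors' deposited table.

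**Figure D4:**
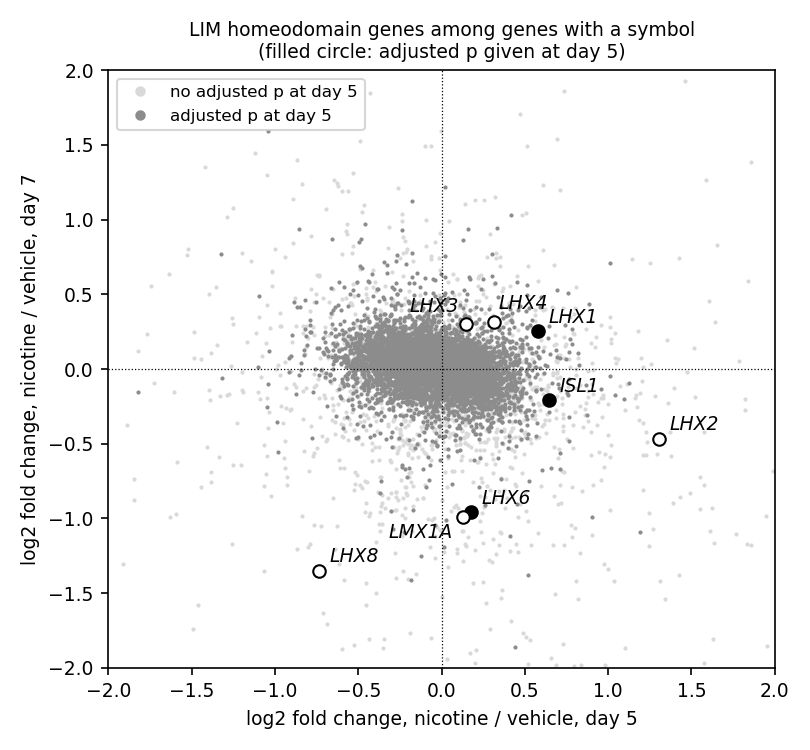
Nicotine effect at day 7 (y axis) against that at day 5 (x axis), both as log2 fold changes of the authors' deposited tables, for the 8 LIM homeodomain genes (circles, filled where an adjusted p is given at day 5) among 8889 other genes with a symbol within 2 log2 units (dark dots, 7205 genes with an adjusted p at day 5, and light dots, 1684 without). LHX8, LMX1A and LHX6 lie between -1.35 and -0.96 on the day 7 axis. Every member but LHX8 lies right of 0 on the day 5 axis, and the light dots of low-count genes spread widely in both directions.

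Of 20 genes of the forebrain and ventral telencephalon, 13 were listed. Of these 3, DLX1, DLX5 and DLX6, fell under nicotine at day 7 in the authors' deposited table, where 0.395% of loci were called. The median there was -1.41 for the 13 genes, which ran from -4.32 to 0.41, and 0.01 for the loci with an adjusted p. Only 3 of the 13 genes had an adjusted p at day 5, so most had low counts. DLX factors act upstream of LHX6 in ventral forebrain neurons of the mouse and pattern the facial arches, the limb edge and cartilage as well. The log2 fold changes for nicotine against vehicle at day 7 were -1.97 for DLX1 (adjusted p = 0.00171), -2.02 for DLX5 (adjusted p = 0.00422) and -2.80 for DLX6 (adjusted p = 0.00214) in the authors' deposited table. In vehicle embryos the same 3 genes rose from day 5 to day 7, by 1.59, 1.42 and 2.49 in that order (adjusted p = 0.000797, 0.00721 and 0.000238), in the authors' deposited table. With age, 2 genes of this list rose and 1 fell in nicotine embryos, and 4 rose in vehicle embryos, in the authors' deposited tables. Over all loci, 31.1% and 36.8% were called in these comparisons. The forebrain factors OTX1, SIX3 and TBR1, the genes of the list with counts, had at most 20, 8 and 5 counts in any of the 16 libraries.

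Genes of facial, limb and surface tissue are given beside LHX6 and LHX8. Of 15 genes of the pharyngeal arches and head mesenchyme, 10 were listed. For nicotine, 0 of the 7 with an adjusted p at day 5 and 0 of 10 at day 7 were called in the authors' deposited tables (medians 0.38 and -0.32). Of 17 limb mesenchyme genes, 10 were listed. For nicotine, 0 of the 9 with an adjusted p at day 5 and 0 of 10 at day 7 were called in the authors' deposited tables (medians 0.34 and -0.50). The shares over all loci were 2.72% at day 5 and 0.395% at day 7. Over all loci, 18.1% were called as higher with age in vehicle embryos. In that comparison 4 arch genes and 5 limb genes rose and 1 of each fell in the authors' deposited table. Among them GSC, an arch factor, rose by 5.42 (adjusted p = 1.22e-17), and GREM1, a BMP antagonist of the limb bud, rose by 4.21 (adjusted p = 3.09e-06), on the log2 scale in the authors' deposited table. Of 4 listed cartilage markers, 3 rose with age in nicotine embryos and 4 in vehicle embryos in the authors' deposited tables. The shares over all loci were 15.9% and 18.1%. The arch and limb lists thus had negative medians for nicotine at day 7 and, in vehicle embryos, rising members with age, without a nicotine call. LHX6 and LHX8 had the same directions in those comparisons, but not in all others. With age in nicotine embryos the list medians were -0.29 and -0.25, whereas LHX6 had 0.54 and LHX8 1.61, in the authors' deposited table. At day 5 both list medians for nicotine were positive, whereas LHX8 had -0.73, in the authors' deposited table.

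Epidermal markers had negative values under nicotine at day 7. CDH1, the epithelial cadherin, fell by 0.61 (adjusted p = 0.0320) in the authors' deposited table. It was the 1 call among the 3 epidermal markers listed, where 0.395% of loci were called. EPCAM had -0.58 (adjusted p = 0.730) in the authors' deposited table. The splicing factor ESRP1, the epidermal marker with counts, ran from 0.806 to 2.07 CPM in nicotine embryos and from 1.91 to 3.51 CPM in vehicle embryos at day 7, and the groups overlapped. The part of epidermal, limb or facial tissue in the LHX6 and LHX8 values was not tested.

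**Figure D5:**
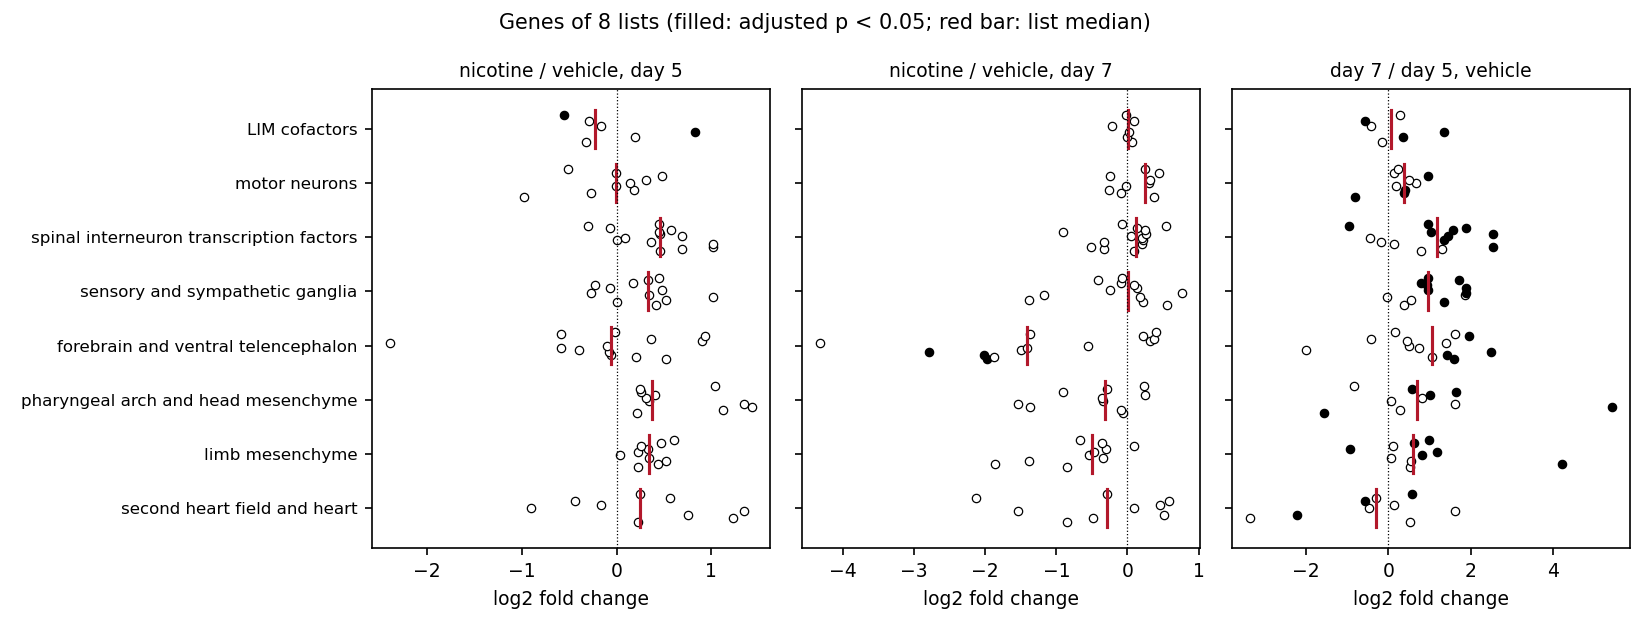
Log2 fold changes (x axis) of the listed genes of 8 lists (y axis) in the authors' deposited tables, for nicotine against vehicle at day 5, nicotine against vehicle at day 7, and day 7 against day 5 in vehicle embryos. Each circle is a gene, filled circles have an adjusted p under 0.05, and red bars are list medians: the forebrain and ventral telencephalon list has its median at -1.41 under nicotine at day 7, and the interneuron list has its median at 1.17 for age. The 13 listed forebrain genes run from -4.32 to 0.41 under nicotine at day 7, and only 3 of them had an adjusted p at day 5, so most had low counts.

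Partners of LIM homeodomain proteins were read as a list of LIM cofactor genes, which also held the LIM kinase gene LIMK1. Of the 11 genes, 6 were listed. At day 5, 2 of 6 were called for nicotine in the authors' deposited table, where 2.72% of loci were called. LMO3, a LIM-only protein, rose under nicotine at day 5 by 0.82 (adjusted p = 0.0191) in the authors' deposited table. SSBP2, which stabilises the LDB adaptor, fell by 0.56 (adjusted p = 0.0199) in the authors' deposited table. At day 7, 0 of 6 were called for nicotine in the authors' deposited table, where 0.395% of loci were called. LMO3 had 0.02 and SSBP2 -0.02 there.

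With age, LMO3 rose by 0.54 in nicotine embryos (adjusted p = 0.0291) and by 1.34 in vehicle embryos (adjusted p = 4.27e-09) on the log2 scale in the authors' deposited tables. SSBP2 rose by 0.83 in nicotine embryos (adjusted p = 3.32e-07), and had a value of 0.29 in vehicle embryos (adjusted p = 0.108), in the authors' deposited tables. RLIM, a ubiquitin ligase that degrades the LDB adaptor, fell by 0.57 in vehicle embryos (adjusted p = 1.45e-06) in the authors' deposited table. LMO3 thus rose with age in both treatments, and SSBP2 in nicotine embryos. For the difference in nicotine effect between ages, 0 of 6 genes of this list were called in the authors' deposited table, against 2.25% of loci. LMO3 had -0.80 (adjusted p = 0.114) there.

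The genes whose patterns lay closest to each member were found by the distance between their 4 log2 fold changes in the authors' deposited tables, over the 7210 or 7211 other genes with a symbol and an adjusted p in each. Comparisons in this measure share libraries, and so it is a description. The genes were picked by these same values, so their likeness to a member in those values is no separate result. For LHX6 the nearest were MMP11 at a distance of 0.0806, SIX2 at 0.134 and MORN5 at 0.506 in the authors' deposited tables. MMP11, a secreted matrix metalloproteinase, fell under nicotine at day 7 by 0.99 (adjusted p = 0.000612) and rose with age in vehicle embryos by 1.63 (adjusted p = 1.58e-13) in the authors' deposited tables. SIX2, an arch and kidney progenitor factor, rose with age in vehicle embryos by 1.63 (adjusted p = 0.000123) and had -0.91 for nicotine at day 7 (adjusted p = 0.711) in the authors' deposited tables. MORN5 is also the immediate neighbour of LHX6 in the RefSeq gene order of GRCg7b, and it rose with age in vehicle embryos by 1.65 (adjusted p = 0.00221) in the authors' deposited table. RBM18, the neighbour on the other side, had -0.22 (adjusted p = 0.199) in the authors' deposited table.

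For ISL1 the nearest were ADAMTS8 at 0.171, SMARCC2 at 0.211 and RTN4RL2 at 0.227 in the authors' deposited tables, and none of these was called at day 5. For LHX1 they were LRRN2, MASP1 and KIF1A, at 0.0938 to 0.188 in the authors' deposited tables. All 3 rose with age in both treatments there, a direction that the choice by distance fixed. For LHX8 the nearest was CHRDL1 at 0.901 in the authors' deposited tables. LHX8 itself had no adjusted p at day 5, and other genes without one were not candidates. Closer matches among low-count genes would therefore be missed. LHX2 was nearest to SGCA at 0.490, LHX3 to CRTAC1 at 0.112, LHX4 to NFASC at 0.116 and LMX1A to SCNM1 at 0.461 in the authors' deposited tables.

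Across the 16 libraries, among 755 other loci with a symbol, the log2 CPM of LHX2 (0.5 CPM added) correlated most with that of FBXO41 (Pearson r = 0.901), MBL2 (0.868), RAD21L1 (0.821), CACNA1E (0.806) and SNPH (0.804). The libraries fall in 4 groups that differ in age, so these values describe shared differences between groups as well as between embryos. All 5 genes rose with age in vehicle embryos in the authors' deposited table, from 1.18 for RAD21L1 (adjusted p = 0.0205) to 2.58 for FBXO41 (adjusted p = 0.000212) on the log2 scale. They were picked by correlation with LHX2, which rose in the same libraries, so this direction is no separate result. In RefSeq order LHX2 and LHX6 lie on the same chromosome with 11 protein-coding genes between them. DENND1A, next to LHX2, fell with age in vehicle embryos by 0.37 (adjusted p = 0.00471) in the authors' deposited table, the opposite direction to LHX2 itself. NEK6, on the other side of LHX2, had 0.01 (adjusted p = 0.932) in the authors' deposited table.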

How the data were processed

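RNA-seq libraries of 16 chicken embryos were grouped by the treatment and age in the labels. The authors deposited a matrix of raw read counts by locus. Their 5 deposited comparison tables hold a log2 fold change, its size as a linear fold ratio, and p-values before and after adjustment. Per the submitters' processing notes, tools included DESeq2, StringTie 1.3.3b, Bowtie2 2.3.2, HISAT2 2.0.5, Trim Galore 0.4.4 and FastQC 0.11.5, with no roles named. The build, the annotation and the use of strand were not given in the sources used here, and reads of antisense or overlapping genes cannot be separated.

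edgeR 4.0.16 (R 4.3.3) was fitted to the counts with 4 group means after filterByExpr and TMM, and its quasi-likelihood F-test was adjusted by Benjamini-Hochberg over 18394 loci, with 0.05 as threshold. DESeq2 1.42.0 was an alternative. CPM are counts scaled by library total and TMM factor. An adjusted p of exactly 1 beside a smaller p was read as no adjusted value. Standard errors for the tables assume a Wald test. They were checked on shared loci against DESeq2 with a covariate for the 4 libraries that lacked 57 loci, where the median ratio of standard errors was 0.999. The log2 fold changes correlated at 0.946 to 1.00 across genes, which are not independent replicates. Embryos are biological replicates per the labels, and no 2 libraries of a group agreed within sampling noise. Fits were tested on simulated data.

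The members and lists were chosen with earlier results of these data known. Text names every member, the nearest 3 genes to each by log2 fold change, the 5 loci most correlated with LHX2, and up to 4 called genes per list by smallest p.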

Additional observations from a re-analysis of the deposited data

Results flagged for a closer look

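NKX2-5, a heart marker, had 1 vehicle library at day 5 far above the other 3, with 96 counts against 8, 0 and 0 (a count of 0 allows up to 3). In CPM the gap took 0.933 of the group's range. Chance sets apart about 1 in 20 groups of 4 normally distributed values. That rate need not hold for low counts such as these, or for a group picked from many. For the nicotine effect at day 7 minus that at day 5, 5 of the genes set beside the members passed in the authors' deposited table. Over all loci there, 2.25% were called. DLX1 of the forebrain list had -2.49 (adjusted p = 0.0123), MMP11, the nearest gene to LHX6, had -1.13 (adjusted p = 0.0205), and TNS1, the third nearest to LHX2, had -1.18 (adjusted p = 0.00452), in the authors' deposited table. The muscle genes MYH15 and MYL3 had 1.06 (adjusted p = 0.0205) and 1.03 (adjusted p = 0.0349) in the authors' deposited table. MMP11 and TNS1 were picked by the log2 fold changes that make up this difference, so their values are no separate result.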

How the results depend on the processing

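The LHX2 values kept their direction in the 16, 16, 16, 16 and 23 alternatives tried for nicotine at day 5, nicotine at day 7, age in nicotine, age in vehicle and the difference in nicotine effect between ages, and their side of the threshold in each with an adjusted p, 22 for the difference, where DESeq2 gave none. The fit of only the compared groups was no alternative for the difference, which uses every group. Their ranges in that order were 0.96 to 1.73, -0.79 to -0.27, 0.29 to 1.05, 2.30 to 2.81 and -2.26 to -1.36. Libraries with the same replicate number had correlations from -0.24 to 0.36 between groups. The same number was the best partner for some of them and not for others, so pairing by replicate number was not settled. With the replicate number as a block LHX2 had 1.22, -0.27, 1.03, 2.52 and -1.49 in the same order. In that fit 1 locus was called for nicotine at day 5 and 1 for the difference. Counts of loci called for nicotine at day 5, nicotine at day 7 and the difference, each 0 by edgeR, were 264, 31 and 242 by DESeq2, and 415, 183 and 281 by DESeq2 with the covariate for the 4 libraries that lack loci. They were 1 at day 5 and 1 for the difference by edgeR with that covariate, 2 and 2 with those libraries left out, an alternative chosen after seeing the data, and 5 at day 7 with only the compared groups in the fit. Leaving out 1 library at a time gave 0 to 3, 0 to 1 and 0 to 5. The causes were not tested. Without nicotine day 5 replicate 3 the age value of LHX2 in nicotine embryos was 0.29, against 0.64 with it. With Benjamini-Hochberg adjustment over all p-values of each of the authors' deposited tables, 8 calls were made among the 40 member values, as with the authors' own adjustment. The low counts of LHX2, 5 in one library, limit its precision.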
